A study of Mus musculus with 3 samples.

Results

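The genes described here are decorin (Dcn), lumican (Lum), biglycan (Bgn), osteoglycin (Ogn), asporin (Aspn), dermatopontin (Dpt), PRELP (Prelp) and fibromodulin (Fmod). They were chosen by name as genes of small matrix proteins that bind collagen, with earlier results of these data known. They are 8 of the 19091 genes in the count tables. Small leucine-rich proteins are secreted by connective tissue cells, fold into a curved stack of leucine-rich repeats and coat collagen fibrils, whose width and spacing they regulate. Several carry chondroitin, dermatan or keratan sulfate chains, and some also hold growth factors in the matrix or bind receptors of immune cells. Dermatopontin has no leucine-rich repeats but binds both decorin and collagen. In the liver such proteins are known as products of portal fibroblasts, of the capsule and of stellate cells.

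Digested liver tissue of adult C57BL/6 mice was profiled by Drop-seq, in which a bead captures the polyadenylated RNA of 1 droplet and each captured transcript is counted once as a unique molecular identifier (UMI). The control library came from livers of mice killed 1 day after sham surgery, and the other 2 libraries from livers taken 1 day or 7 days after irreversible electroporation (IRE), which kills cells with electric pulses. According to the labels, 8 pulses of 50 ms were given at 75 V with 1 s between pulses (the methods of the study name a lower voltage), and the treated area, or the matching uninjured area of a control liver, was cut out with a 4 mm punch. Each library pooled tissue of 3 livers, so that there was 1 library per condition and no test across animals was possible. No sham library was made at 7 days, so that ratios of day 7 to control also differ in time after surgery. All intervals are 95% intervals that cover counting error only. Levels are counts per 1000000 UMIs of the cells concerned (CPM). Since a UMI stands for 1 transcript whatever its length, levels of different genes were compared without a length correction. Differences between genes in capture or mapping were not measured.

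A barcode counted as a cell from 200 detected genes on, which gave 10386 cells in control, 9253 on day 1 and 5624 on day 7 after IRE, with 8013800, 6107866 and 3058967 UMIs and medians of 595, 509 and 456.5 UMIs per cell. Mitochondrial transcripts took 20.5% and 21.7% of the UMIs in control and on day 1 but 4.10% on day 7. Of the kept barcode sequences, 68 occurred in both the control and the day 1 library, 44 in control and on day 7 and 149 on both days after IRE. Without them each ratio between whole libraries that has an interval stayed within it. Cells were assigned to classes by lists of 8 marker genes each, none of which is among the 8 genes. The 8 hepatocyte markers took at most 2.62% of the UMIs of any library and only 8 cells passed the hepatocyte gate, so that the tissue is represented by its non-parenchymal cells. The labels name a cell number per library that is far below the number of barcodes, and how many barcodes were single cells was not tested, nor was the release of each cell type by the enzymes.

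In the RefSeq annotation of the mouse genome (GRCm38.p6) most of the 8 genes stand in clusters of related genes. Dcn and Lum are neighbours on chromosome 10, followed by Kera and Epyc. On chromosome 13 the order is Ecm2, Aspn, Omd and Ogn, and on chromosome 1 it is Optc, Prelp and Fmod. Dpt, on chromosome 1, and Bgn, on the X chromosome, have no such neighbour. The RefSeq promoter table held 6 of the 8 genes, all but Dcn and Lum. The 250 bases before the start of 4 of them are shown because these genes stand at the ends of the range described below: Aspn and Ogn, cluster neighbours whose UMIs lay mostly in mesenchymal cells, and Bgn and Prelp, whose UMIs lay also in endothelial cells. Capitals mark matches, on either strand, to TATAAA or to the ETS-type core AGGAAG.
Aspn, chr13:49544193-49544442, strand plus: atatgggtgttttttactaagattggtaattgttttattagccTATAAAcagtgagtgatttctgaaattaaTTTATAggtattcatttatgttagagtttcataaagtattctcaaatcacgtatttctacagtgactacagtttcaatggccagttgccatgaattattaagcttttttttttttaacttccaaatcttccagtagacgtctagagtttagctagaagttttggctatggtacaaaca
Ogn, chr13:49607765-49608014, strand plus: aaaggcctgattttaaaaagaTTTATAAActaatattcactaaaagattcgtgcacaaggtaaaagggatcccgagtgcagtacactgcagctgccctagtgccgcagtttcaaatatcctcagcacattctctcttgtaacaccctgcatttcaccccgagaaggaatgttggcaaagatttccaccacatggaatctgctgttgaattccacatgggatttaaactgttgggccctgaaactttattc
Bgn, chrX:73483351-73483600, strand plus: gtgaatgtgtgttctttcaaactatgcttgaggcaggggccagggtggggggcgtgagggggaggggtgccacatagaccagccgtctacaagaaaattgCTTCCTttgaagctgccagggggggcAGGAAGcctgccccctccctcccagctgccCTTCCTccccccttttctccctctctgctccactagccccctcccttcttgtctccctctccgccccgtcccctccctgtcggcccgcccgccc
Prelp, chr1:133921402-133921651, strand minus: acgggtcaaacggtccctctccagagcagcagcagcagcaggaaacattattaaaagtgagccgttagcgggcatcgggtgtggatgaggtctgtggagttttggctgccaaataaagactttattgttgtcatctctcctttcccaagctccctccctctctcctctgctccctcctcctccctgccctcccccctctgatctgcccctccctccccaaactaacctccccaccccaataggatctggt
The Aspn and Ogn windows held 30.0% and 42.0% G or C, against 64.4% for Bgn, 55.6% for Prelp and a median of 52.4% over all 32851 promoters. Those of Dpt and Fmod, whose UMIs also lay mostly in mesenchymal cells, held 48.8% and 51.2%, nearer to the median. TATAAA matched in the windows of Aspn and Ogn, between 178 and 229 bases before the start, and was found in 12.4% of all promoters. AGGAAG matched 3 times for Bgn and occurs in 29.5% of all promoters. The AP-1 motif TGANTCA (6.75% of all promoters), the SMAD-type motif CAGACA (17.1%) and the CArG box (1.47%) matched in none of the 6 windows. A match is only a match of letters.

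Decorin was the most abundant of the 8 genes in control liver, and 7 of the 8 were lower on day 1, several of them by more than an order of magnitude. Dcn, which binds collagen fibrils and transforming growth factor beta, stood at 418 CPM in control (interval 404 to 432), 25.0 on day 1 and 3.60 on day 7, from 3350, 153 and 11 UMIs. The 3 intervals did not overlap. Its level was 16.7-fold lower on day 1 (14.2 to 19.8) and 116-fold lower on day 7 (64.9 to 233). Lum, which like fibromodulin binds type I collagen, had 490 UMIs in control (61.1 CPM), 6 on day 1 (0.982 CPM) and 0 on day 7. This is 62.2-fold lower on day 1 (28.4 to 170.4) and at least 62.3-fold lower on day 7, when the 0 is set to the 3 counts that it allows. Fmod was the rarest of the 8 genes in control, with 40 UMIs there, 14 on day 1 and 0 on day 7 (4.99, 2.29 and 0 CPM). Its level was 2.18-fold lower on day 1 (1.16 to 4.33) and at least 5.09-fold lower on day 7.

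Asporin and osteoglycin share a cluster on chromosome 13 and were nearly as abundant as each other in control. Aspn, which carries no sulfate chain and inhibits transforming growth factor beta, had 358 UMIs in control (44.7 CPM), 4 on day 1 (0.655 CPM) and 0 on day 7. It had the largest ratio of the 8 genes on day 1, 68.2-fold lower, but the interval of 26.4 to 252 includes the value of Lum. Ogn stood at 51.2, 3.60 and 1.31 CPM, from 410, 22 and 4 UMIs, which is 14.2-fold (9.25 to 22.9) and 39.1-fold (15.2 to 144) lower than control. Dpt, the gene without leucine-rich repeats, had the same order of libraries, with 77.5, 6.22 and 0.327 CPM from 621, 38 and 1 UMIs. It was 12.5-fold lower on day 1 (8.97 to 17.8) and 237-fold lower on day 7, where 1 UMI leaves an interval of 42.4 to 9378.

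Biglycan and PRELP stood apart from the others on day 1. Bgn, whose protein can bind Toll-like receptors when it is soluble, was 119 CPM in control, 93.8 on day 1 and 4.58 on day 7, from 953, 573 and 14 UMIs. On day 1 it was 1.27-fold lower (1.14 to 1.41), and it had become the most abundant of the 8 genes, above Dcn. Prelp, whose protein links collagen to perlecan of basement membranes, stood at 10.5 CPM in control (8.36 to 13), 32.6 on day 1 (28.2 to 37.4) and 1.31 on day 7 (0.356 to 3.35), from 84, 199 and 4 UMIs. It was the only one of the 8 genes that was higher on day 1, by 3.11-fold (2.40 to 4.06). On day 7 Bgn was 26.0-fold lower than control (15.4 to 47.7) and Prelp 8.02-fold lower (3.02 to 30.1).

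**Figure D1:**
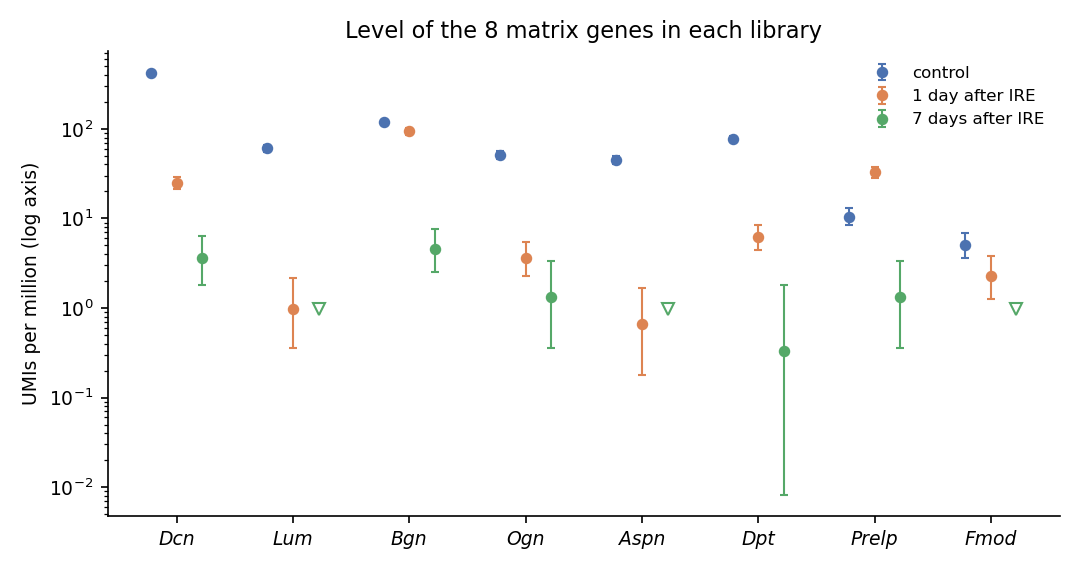
Level of each of the 8 genes in the control library and in the libraries 1 day and 7 days after IRE, in CPM over all kept cells, on a log axis. Points are 1 library each with 95% Poisson intervals, and open triangles mark 0 UMIs at the level of 3 counts; Prelp is the gene whose 1 day point lies above its control point.

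Counted over all 8 genes, 6 were at least 2-fold lower on day 1 than in control and 1, Prelp, was at least 2-fold higher, while over all 12988 genes with at least 20 UMIs in the 2 libraries together 7.14% were lower and 13.6% higher by that margin. The median log2 ratio was -3.73 over the 8 genes and 0.05 over all genes. On day 7 all 8 genes were at least 2-fold lower than in control, where 26.3% of 12074 genes were lower and 8.79% higher. Their median log2 ratio was -5.40, against -0.29 for all genes. Between day 7 and day 1, 5 of the genes had enough UMIs and all 5 (Dcn, Bgn, Ogn, Dpt and Prelp) were at least 2-fold lower, beside 31.8% lower and 11.3% higher among 12116 genes. The ratio of Ogn there, 2.75-fold lower, had an interval of 0.936 to 11.0 that includes no difference. Summed over the 8 genes, 787 CPM in control stood against 165 on day 1 and 11.1 on day 7, which is 4.76-fold (4.46 to 5.10) and 70.8-fold (50.6 to 102) lower. The makeup of the libraries moved with these levels. Neutrophil-gated cells were 3.43% of cells in control, 0.616% on day 1 and 44.3% on day 7, and monocyte-gated cells 12.2%, 1.01% and 29.0%, so that the control library held a larger share of both than the day 1 library. In a whole library, a lower level from a larger share of other cells cannot be told apart from less RNA per cell.

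In the control library, the UMIs of these genes lay mainly in mesenchymal cells. The mesenchymal gate (at least 2 of Col1a1, Col1a2, Col3a1, Col5a2, Col6a1, Col6a2, Pdgfra and Pdgfrb, and more markers than of any other class) held 437 control cells, which were 4.21% of the cells (3.83 to 4.61%) and 6.05% of the UMIs. Among the 20 genes with the highest ratio of these cells to all others, Aspn was the third, and Ogn, Dpt and Lum were also present. Postn, Cthrc1, Tnc and Lox, which are wound matrix markers in the division of these cells below, stood beside gate collagens. These are genes of mesenchymal matrix, but markers of the other classes were also found in them. The 8 neutrophil markers took 792 CPM, the 8 Kupffer markers 747, the 8 mesothelial markers 588 and the 8 hepatocyte markers 458, against 27211 for the mesenchymal markers; their part in the values was not tested. The gated cells contained 76.2% of all UMIs of the 8 genes (75.1 to 77.2%). With barcodes left out that also carried markers of a second class, 289 cells remained, with 41.9%. The share was 88.8% for Aspn (85.1 to 91.9%), 82.9% for Ogn, 82.8% for Dpt, 82.2% for Lum, 79.8% for Dcn and 77.5% for Fmod, so that these 6 genes lay within a narrow range. It was 53.0% for Bgn (49.8 to 56.2%) and 21.4% for Prelp (13.2 to 31.7%), whose intervals did not reach those of the other 6. Relative to all other control cells, the level in mesenchymal cells was 124-fold higher for Aspn (88.7 to 176), 61.5-fold for Dcn, 17.5-fold for Bgn (15.4 to 19.9) and 4.24-fold for Prelp (2.37 to 7.22).

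**Figure D2:**
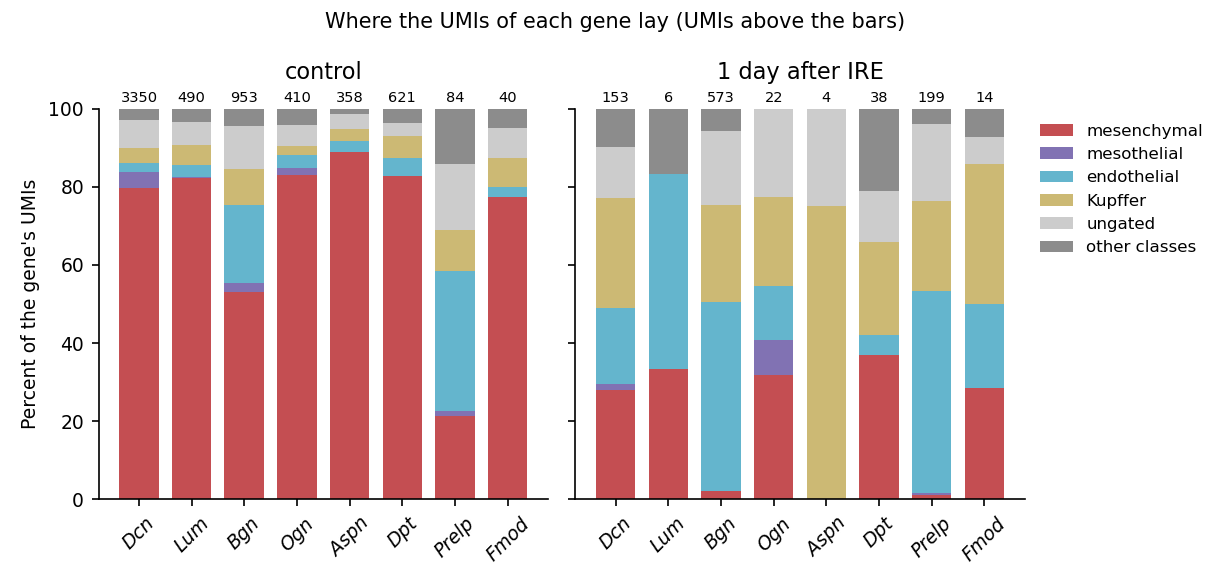
Percent of the UMIs of each gene that lay in each gated cell class, in the control library and 1 day after IRE, with the gene's UMIs above each bar. Mesenchymal cells held over 75% of the UMIs of 6 genes in control, and endothelial cells were the largest class for Bgn and Prelp on day 1.

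Mesenchymal cells were rare after IRE. The gate held 12 of 9253 cells on day 1 (0.130%, interval 0.0670 to 0.226%) with 8420 UMIs in all, and 1 of 5624 cells on day 7 with 266 UMIs, which is too few for a comparison. Inside the 12 cells on day 1 the summed level was 9976 CPM, against 9911 in the 437 control cells, a ratio of 1.01 (0.801 to 1.25). Hepatocyte markers took 8195 CPM in these 12 cells and 458 in the control cells. An alternative total left them out only together with mitochondrial genes, and their own part in the ratio was not tested. Dcn stood at 5107 CPM on day 1 (3696 to 6879) and 5518 in control (5311 to 5731). Bgn, Ogn and Dpt had 12, 7 and 14 UMIs there, with ratios of 1.37 (0.702 to 2.41), 1.18 (0.473 to 2.47) and 1.57 (0.851 to 2.65) to control, none of which excludes an equal level. Lum had 2 UMIs, with a ratio of 0.286 (0.0345 to 1.04). Aspn had 0 UMIs, by UMIs at least 1.84-fold lower than its control level of 656 CPM. By cells, 0 of 12 had Aspn, with an upper limit of 26.5% that includes the 16.2% of control cells. In control, 44 cells held 91.5% of its UMIs, so that 12 cells cannot decide on a lower level. Fmod, with 4 UMIs in 2 cells, had a ratio of 7.43 (1.90 to 21.0) and Prelp, with 2 UMIs, one of 6.40 (0.720 to 26.7). For Fmod the interval by cells, 2.09 to 48.4%, includes the 5.72% of control cells. Of the 8 genes, 2 were at least 2-fold higher and 1 at least 2-fold lower in mesenchymal cells on day 1, beside 20.9% higher and 3.79% lower among 3777 genes with at least 20 UMIs.

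This comparison depended on how mesenchymal cells were defined. Every one of the 437 and of the 12 cells had a UMI of a gate collagen. With a gate that used no collagen gene (Pdgfra, Pdgfrb and the stellate, fibroblast and smooth muscle markers listed below), 282 control cells and 28 cells on day 1 passed, and the summed level was 10560.1 CPM in control and 2183 on day 1, 4.84-fold lower (ratio 0.207, 0.140 to 0.294). The cells taken on day 1 were largely different ones: 1 of the 28 was among the 12, 5 of the 28 had a collagen UMI, and 21 had a UMI of Acta2, the actin of smooth muscle. In control, 220 of the 282 cells were among the 437. The number of mesenchymal cells was lower after IRE with either gate.

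**Figure D3:**
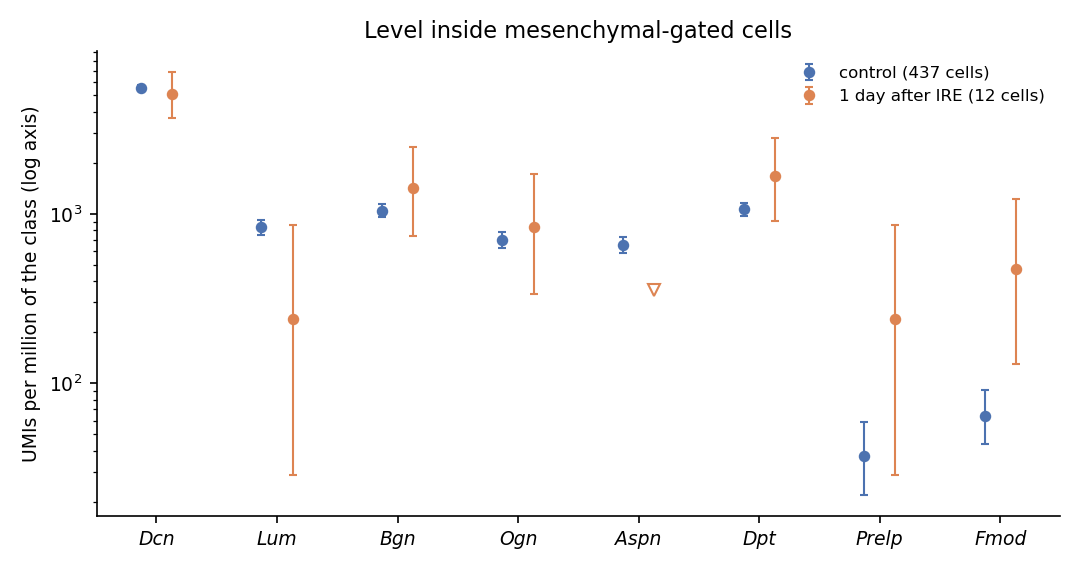
Level of each gene inside cells of the mesenchymal gate with collagen markers, in CPM of those cells on a log axis, for 437 control cells and 12 cells 1 day after IRE. Points are 1 library each with 95% Poisson intervals and the open triangle marks 0 UMIs of Aspn at the level of 3 counts. The intervals of the 2 libraries overlap for 6 genes and not for Aspn, which had no UMI on day 1, or Fmod. They count UMIs and not cells, and by cells with a UMI the day 1 intervals of Aspn and Fmod include the control share.

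Outside mesenchymal cells, the summed level was 1.32-fold lower on day 1 than in control (1.21 to 1.43), far from the 4.76-fold of the whole library. There too Dcn was 4.98-fold lower (4.06 to 6.15), Lum 17.6-fold (6.64 to 66.1) and Aspn 8.10-fold (2.93 to 31.2). Bgn was higher outside mesenchymal cells on day 1, with a ratio of 1.55 (1.36 to 1.75), and so was Prelp, with a ratio of 3.68 (2.77 to 4.95). Barcodes under 200 genes hold free RNA but also cells of low depth: with every barcode, 519 instead of 437 passed the mesenchymal gate in control. In the barcodes left out, Dcn stood at 86.7 CPM in control, 22.8 on day 1 and 3.94 on day 7, thus in the same order as in cells. In control, endothelial cells had 87.8 CPM of Dcn and Kupffer cells 46.8, which is 1.01 times (0.768 to 1.33) and 0.540 times (0.427 to 0.682) the level of those barcodes. Control T and NK cells, which should lack the gene, were lower still, at 0.292 times that level (0.152 to 0.512).

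At least 1 of the 8 genes was detected in 406 of 437 control mesenchymal cells (92.9%, 90.1 to 95.1%) and in 11 of 12 on day 1 (91.7%, 61.5 to 99.8%), against 32 of 688 control T and NK cells (4.65%, 3.20 to 6.50%), which should lack them. The median depth was 885, 653.5 and 590 UMIs per cell. Thinning of every cell to 300 UMIs left out 9 control mesenchymal cells, no day 1 cell and 6 control T and NK cells, and gave shares of 81.3%, 83.3% and 1.91%. Dcn was found in 84.2% of control mesenchymal cells with a median of 4 and a maximum of 96 UMIs per cell, Bgn in 55.1%, Lum in 33.0%, Dpt in 32.5%, Ogn in 30.4%, Aspn in 16.2%, Fmod in 5.72% and Prelp in 2.52%. In control T and NK cells the shares were 1.89% for Dcn, 1.45% for Bgn and at most 0.436% for each of the other genes.

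The 8 genes were spread unevenly among control mesenchymal cells. The 44 cells with most Aspn held 91.5% of its UMIs, while the 44 cells with most Bgn held 43.2% of the UMIs of Bgn and those with most Dcn 37.7% of the UMIs of Dcn; the 44 deepest cells held 27.1% of all UMIs. Dpt was found in 53 of 71 cells with Aspn (74.6%) and in 89 of 366 cells without (24.3%), and Lum in 69.0% and 26.0% of them. Cells with Aspn were deeper, with a median of 1093 UMIs against 829.5. For Dcn the shares with and without Aspn were 84.5% and 84.2%.

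Control mesenchymal cells were divided by 4 further lists of 8 markers, which left 246 cells undivided at a median of 681.5 UMIs, below the medians of 1028.5 to 1347.5 UMIs in the divided cells. Fibroblast-marked cells (Mfap5, Pi16, Clec3b and others, 70 cells) had 9806 CPM of Dcn, 1729 of Lum and 2330.2 of Dpt. These were 2.19-fold (2.02 to 2.37), 2.82-fold (2.30 to 3.45) and 3.10-fold (2.59 to 3.70) the levels of the other mesenchymal cells. Cells marked by wound matrix genes (Postn, Cthrc1, Tnc and others, 68 cells) held 227 of the 318 Aspn UMIs, at 2071 CPM, which is 8.53-fold the level of the others (6.66 to 11.0). Their Ogn was 2.31-fold higher (1.85 to 2.88), while their Dcn stood at 0.641 of the level in the others (0.576 to 0.712). Why the control library, from livers after sham surgery, held cells with wound matrix markers was not tested. The day 1 library had 0 such cells among its few mesenchymal cells. Cells with smooth muscle markers (43 cells) had lower Dcn (ratio 0.412, 0.347 to 0.487), Lum (0.353) and Dpt (0.365), but not Bgn, at 974 CPM with a ratio of 0.927 (0.692 to 1.22). Across the 5 subsets Bgn ranged from 902 to 1314 CPM, the smallest ratio of highest to lowest among the 8 genes. The stellate-marked cells (Reln, Lrat, Colec11 and others) numbered only 10, and 10 of the 18 mesenchymal Prelp UMIs lay in 3 of them, with 816 CPM and a ratio of 48.2 to the other mesenchymal cells (17.1 to 140.4). They also had Dcn at 10847 CPM. After IRE there were too few cells to divide.

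**Figure D4:**
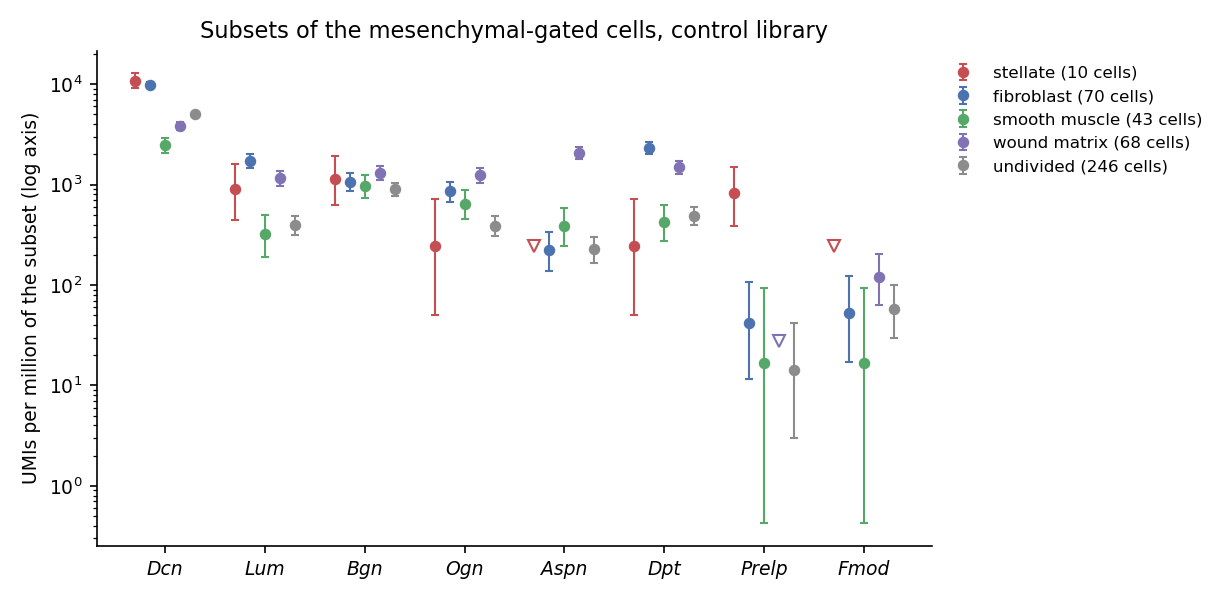
Level of each gene in 5 subsets of the control mesenchymal cells, in CPM of the subset on a log axis, with 95% Poisson intervals; open triangles mark 0 UMIs at the level of 3 counts. Aspn was highest in cells with wound matrix markers, Lum and Dpt in fibroblast-marked cells and Prelp in the 10 stellate-marked cells, and Bgn was close to level.

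Mesothelial cells, which cover the liver surface, were the other class with a high level of decorin. The 15 control cells that passed their gate (Msln, Upk3b, Wt1 and others) had 131 Dcn UMIs, or 7118 CPM (5952 to 8447), and 22 of Bgn, or 1195 CPM. Lum was detected with 1 UMI there, and Aspn, Dpt and Fmod with none. Only 1 such cell was found on day 1 and none on day 7.

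Endothelial cells held the largest share of the Bgn and Prelp UMIs on day 1. They numbered 1388 in control (13.4% of cells, 11.4% of UMIs) and 2926 on day 1 (31.6% of cells, 29.3% of UMIs). Of the Prelp UMIs, 30 of 84 (35.7%) lay in endothelial cells in control and 103 of 199 (51.8%) on day 1. Their Prelp level was 32.9 CPM in control and 57.5 on day 1, a ratio of 1.75 (1.15 to 2.72). For Bgn, 191 of 953 UMIs and 278 of 573 UMIs (48.5%) lay in endothelial cells, with levels of 209.7 CPM in control and 155 on day 1, a ratio of 0.740 (0.613 to 0.894). Both were above the other cells of the same library, Prelp 4.33-fold (2.68 to 6.89) in control and 2.58-fold (1.94 to 3.45) on day 1, and Bgn 1.95-fold (1.66 to 2.29) and 2.27-fold (1.92 to 2.68). Among 4 of the 8 genes with enough UMIs in endothelial cells, Dcn and Dpt were at least 2-fold lower on day 1 and none was 2-fold higher, beside 3.58% lower and 12.2% higher among 9526 genes. Their Dcn was near the level of the barcodes left out, at 1.01 times in control (0.768 to 1.33) and 0.734 times on day 1 (0.455 to 1.16). Dpt rested on 29 and 2 UMIs.

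Both genes were also higher on day 1 in the barcodes left out and in Kupffer cells. In barcodes under 200 genes Bgn went from 49.5 to 79.8 CPM and Prelp from 6.93 to 24.4. In Kupffer cells, the resident macrophages, Bgn went from 31.9 to 57.2 CPM and Prelp from 3.27 to 18.5, and on day 1 these stood at 0.716 (0.573 to 0.893) and 0.758 (0.505 to 1.13) of the level in the barcodes left out. T and NK cells, with 10 Bgn UMIs in each of both libraries, had 19.5 CPM in control and 80.4 on day 1. Endothelial cells exceeded the barcodes left out in both libraries, for Bgn by 4.23-fold in control (3.31 to 5.45) and 1.94-fold on day 1 (1.61 to 2.35), and for Prelp by 4.75-fold (2.44 to 9.69) and 2.35-fold (1.69 to 3.29). Bgn was detected in 11.6% of control endothelial cells and 8.13% on day 1, against 1.45% and 4.69% of T and NK cells. After thinning to 300 UMIs the shares on day 1 were 4.20% (3.49 to 5.01%) and 2.44% (0.797 to 5.60%), whose intervals overlap. For Prelp the detected shares were 1.95% and 3.28% of endothelial cells, against 0.291% and 1.41% of T and NK cells. Hepatocyte marker RNA in endothelial cells went from 841 to 19353 CPM between control and day 1; its part in these ratios was not tested.

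Endothelial cells were divided by markers of sinusoids and of larger vessels, lists that were written after values had been seen. Bgn was higher in the 43 control cells and 53 cells on day 1 with markers of larger vessels, at 399.7 and 666 CPM, than in sinusoidal cells, at 202 and 155 CPM. Prelp did not differ beyond counting error between them, with 4 and 3 UMIs in the cells of larger vessels and ratios of 2.99 (0.751 to 8.75) and 1.22 (0.246 to 3.67).

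**Figure D5:**
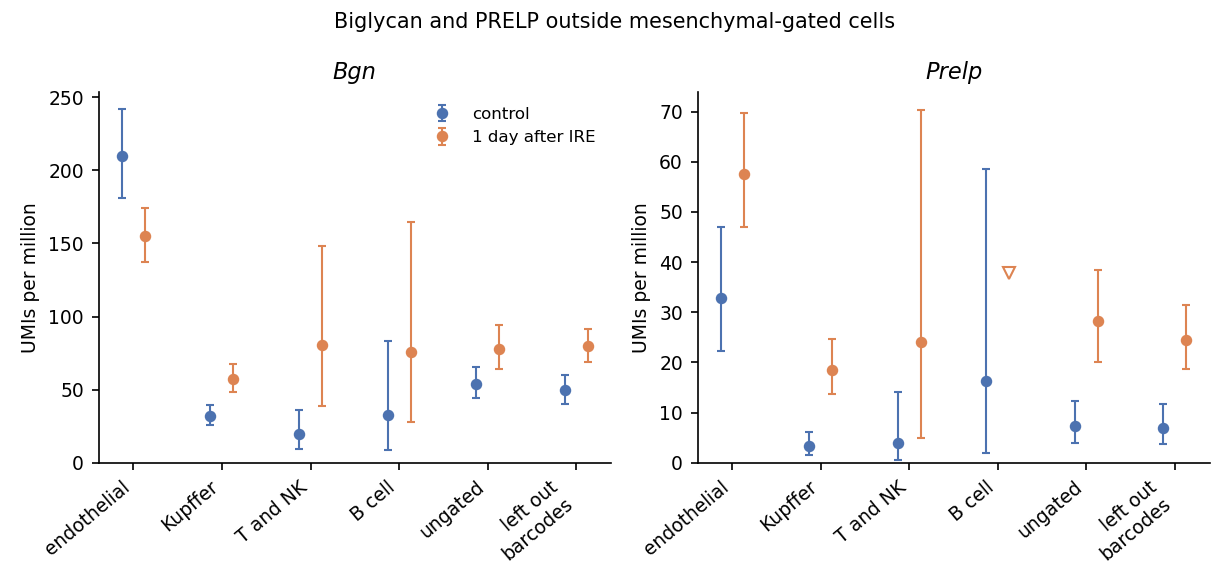
Level of Bgn (left) and Prelp (right) in endothelial, Kupffer, T and NK, B and ungated cells and in barcodes left out for having under 200 genes, in CPM on linear axes that start at 0, for the control library and 1 day after IRE. Points are 1 library each with 95% Poisson intervals, and the open triangle marks 0 UMIs at the level of 3 counts; endothelial cells were highest for Bgn in both libraries, at 209.7 and 155 CPM, and the level in barcodes left out was higher on day 1 for both genes.

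A total of 34 UMIs of the 8 genes lay in 27 cells on day 7. Lum, Aspn and Fmod have no row in the table of that library and were taken as 0. Of these UMIs, 16 lay in neutrophil-gated cells, which numbered 2494, at a level of 12.7 CPM (7.24 to 20.6), and barcodes under 200 genes had 9.20 CPM (5.03 to 15.4), so that the intervals overlap. The 44 endothelial cells on day 7 had 2 UMIs of Bgn and none of Prelp.

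Across 25 sums of 1 class in 1 library with at least 20000 UMIs, the patterns of the genes were compared by Pearson's r on log2 values, as a description, since the sums share libraries and the control mesenchymal sum is the highest for most of these genes. Lum and Ogn (r = 0.975), Ogn and Aspn (0.963), Lum and Aspn (0.958) and Lum and Dpt (0.937) were most alike. Of neighbours in the genome, Dcn and Lum had an r of 0.887 and Prelp and Fmod one of 0.324. Fmod had only 50 UMIs in these sums, below the minimum of 100 set for likeness, so that no conclusion is drawn from its r. Among 10055 genes, the one most like Dcn was Col3a1 (0.909), most like Lum Col6a2 (0.976), most like Ogn Col5a1 (0.979), most like Aspn the fibril gene Mfap5 (0.988) and most like Dpt Gas1 (0.953). Col3a1 and Col6a2 are themselves markers of the mesenchymal gate, so that their high level in its control sum follows from the gate. Bgn was most like Hspg2 (0.909), which encodes perlecan, and Prelp most like the basement membrane laminins Lama4 (0.930) and Lamb2 (0.806).

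Other genes of the same matrix were read from lists written from general knowledge, with earlier results of these data known. All 12 partner collagens and fibril genes were at least 2-fold lower on day 1, with a median log2 ratio of -4.55, and 11 of 12 on day 7, with a median of -5.95. These counts stand beside the shares of all genes given above. Col1a2 went from 842 CPM in control to 12.3 and 3.27, and Col3a1 from 700.4 to 19.8 and 5.23. The exception was Fn1, fibronectin of provisional matrix, at 231, 99.9 and 403 CPM. Of the other small leucine-rich genes, 4 of 10 had enough UMIs on day 1 and only Tsku passed 2-fold, with 9 and 20 UMIs. Ecm2, the neighbour of Aspn, had 12.0 CPM in control, 9.99 on day 1 and no UMI on day 7, at least 12.2-fold lower. The median log2 ratio of that list was -0.28 on day 1 and -3.65 on day 7, when both genes that could be compared (Ecm2 and Podnl1) were lower.

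Enzymes that build the sulfate chains, which several of the 8 proteins carry, had a median ratio nearer to 1 than the 8 genes. Of 16 with at least 20 UMIs in control and day 1 together, 2 were at least 2-fold higher (Csgalnact1 and Chst14) and 2 lower (Chpf and Chst11), with a median log2 ratio of -0.18. Over all genes the shares were 13.6% higher and 7.14% lower. Chst14, which sulfates dermatan chains, went from 4.74 to 13.9 CPM and was 4.90 on day 7. Dse, the epimerase that makes dermatan sulfate, stood at 33.7, 43.4 and 23.9 CPM. On day 7, 2 of 18 were higher (Xylt1 and Chst11) and 6 lower, with a median of -0.43, beside 8.79% and 26.3% of all genes. Of the proteases that cut or process these proteins, 4 of 8 were at least 2-fold lower on day 1 (Mmp2, Mmp14, Adamts4 and Adamts5) and none higher, while 3 were lower (Bmp1, Mmp2 and Adamts5) and 1, Mmp13, higher on day 7, with medians of -1 and -0.49. The shares of all genes were 7.14% lower and 13.6% higher on day 1, and 26.3% lower and 8.79% higher on day 7. Mmp2, a gelatinase of mesenchymal cells, went from 43.7 to 2.13 and 0 CPM.

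Receptors and ligands that these proteins bind differed among themselves in their order of libraries. Of 16 compared on day 1, 5 were at least 2-fold higher (Egfr, Kdr, Igf1r, Bmp2 and Bmp4) and 1, Tgfb3, was lower, while 4 were higher and 6 lower on day 7, with medians of -0.24 and -0.12. Over all genes 13.6% were higher and 7.14% lower on day 1, and 8.79% higher and 26.3% lower on day 7. These are whole-library values, and endothelial cells were 13.4% of cells in control and 31.6% on day 1. Inside endothelial cells, 2 of 15 compared were at least 2-fold higher on day 1 (Egfr and Met) and 0 lower. There 12.2% of 9526 genes were higher and 3.58% lower. Kdr, an endothelial gate marker, stood there at 1403 CPM in control and 1229 on day 1, Bmp2 at 900.2 and 748, and Bmp4 at 26.3 and 35.2. Tgfb2 stood at 8.61, 6.71 and 0.654 CPM in control, on day 1 and on day 7, and Tgfbr2 at 42.2, 40.1 and 25.2 CPM. On day 1 they were only 1.28-fold (from 69 and 41 UMIs) and 1.05-fold lower than control. No interval was computed for these ratios. Tlr2 and Tlr4, receptors of soluble biglycan, went from 28.0 and 22.3 CPM in control to 17.4 and 17.2 on day 1 and to 107 and 87.9 on day 7. At that time Bgn itself had 14 UMIs. Cd44 was 224, 149 and 701 CPM. Egfr, a receptor that decorin binds, was 8.24, 43.4 and 0.654 CPM.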

How the data were processed

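Drop-seq libraries of digested mouse liver were measured in 3 samples, 1 per condition, each of 3 pooled livers. The authors deposited gene by barcode tables of UMI counts, which are whole-number counts with no normalization, and a summary per barcode. The submitters' processing notes name STAR 2.5.2a and hg19, a human build; the mouse build and annotation are not given in the sources used here. The members and all lists were chosen with earlier results of these data known, and the lists of sinusoidal and larger-vessel genes were written after values were seen.

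From the counts, barcodes with at least 200 genes were kept. A barcode took the class with the most different markers of 11 lists of 8, at least 2, or was called hepatocyte where hepatocyte markers were at least 20% of its UMIs. Ties stayed ungated. Doublets were not called, and barcodes with markers of a second class were left out only as an alternative. Levels are counts per 1000000 UMIs (CPM) with exact Poisson intervals, shares have exact Clopper-Pearson intervals and ratios conditional binomial intervals, all at 95% and for counting error only. A count of 0 was set to 3 for bounds. Genes with at least 20 UMIs in a pair of libraries entered counts past 2-fold. Correlations used log2(CPM + 10), over genes with at least 100 UMIs, but pairs of members also took in Fmod with 50 UMIs. All 8 members are named, with the 3 most alike genes of each considered and genes of 5 lists (other small leucine-rich genes, sulfate chain enzymes, partner collagens, proteases, receptors and ligands). With 1 library per condition no test was run. The steps were tested on simulated data. Alternatives were other barcode filters, scaling, gates and count minimums. Python 3.11.15, numpy 2.4.6, scipy 1.17.1 and matplotlib 3.10.9 were used. Depth was 3058967 to 8013800 UMIs per library.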

Additional observations from a re-analysis of the deposited data

Results flagged for a closer look

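In barcodes with under 200 genes, which enter no comparison of cells, Bgn was 1.61-fold (1.26 to 2.07) and Prelp 3.52-fold (1.95 to 6.83) higher on day 1 than in control. Bgn stood at 0.740 of its control level in endothelial cells on day 1 and at 1.79 times its control level in Kupffer cells, in opposite directions. In Kupffer cells on day 1 Bgn was at 0.716 (0.573 to 0.893) of its level in barcodes with under 200 genes. Kdr, an endothelial gate marker, also went from 46.1 to 261 CPM in Kupffer cells. The part of RNA from other cells in the Kupffer ratio was not tested. Prelp, over whole libraries, was 3.11 times its control level on day 1 and 0.125 of it on day 7. Each condition had 1 library, so none of these differences was tested.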

How the results depend on the processing

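No paired analysis was possible because each condition has 1 library, and no replicate could be left out. Of 85 values for the summed genes and the counts under the alternatives, 63 stayed within the counting interval or 1.5 times the count, 22 moved and 0 reversed. Only ratios at least 2-fold from 1 in the main setting could be labelled reversed. Counts, percents and the mesenchymal ratio of 1.01 could only stay or move, so that the 0 says nothing about them. Of 113 values for single genes, 110 stayed and 3 moved. The summed whole-library ratio of day 1 to control (0.210) was 0.235 with every barcode, 0.187 with at least 500 UMIs per barcode and 0.173 with at most 20% mitochondrial UMIs. The percent of UMIs in mesenchymal cells was 73.3, 78.3 and 80.4 in control under the same settings (76.2), and 12.9 on day 1 (8.33) under the mitochondrial limit. It was 72.3 in control with at least 3 markers, 81.8 by most marker UMIs, 41.9 without barcodes of a second class and 58.9 with the gate without collagens; the last 2 gave 2.97 and 3.07 on day 1. Within mesenchymal cells the summed ratio (1.01) was 1.30 without barcodes of a second class and 0.207 without collagens in the gate. The number of genes higher there (2) was 1 with at least 500 UMIs, the mitochondrial limit, 3 markers or no second class, and 0 without collagens; the number lower (1) was 0 without a second class and 5 without collagens. The causes were not tested. Mesenchymal cells on day 7 (1 cell) gave no comparison. With 1 library of pooled livers per condition, differences between animals, digestions or libraries cannot be told apart from the treatment. In ratios of day 7 to control, time after surgery cannot be told apart from it either.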
